A study of Mus musculus with 12 samples.

Results

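Macrophages are phagocytes that live between the tubules of the kidney and enlarge their population when the kidney is injured or cystic. They clear cell debris and immune complexes, and they depend on the growth factors CSF1 and IL34, which both signal through the receptor encoded by Csf1r. Their transcripts can be read in whole-kidney RNA because tubule, vessel and stromal cells express most of these genes weakly or not at all. The 38 genes described here were chosen by name, as markers of macrophage identity and of resident and alternatively activated states. Earlier results of these data were known when they were chosen. All 38 were found among the 54532 genes of the count table, and all 38 were among the 24642 genes that were tested.

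Reads were counted per gene in whole kidneys, flash frozen at 18 days of age, from 12 C57BL/6 mice (C57BL/6 J in the study's methods) in 4 groups of 3, numbered 19 to 30 as in the sample labels. Noncystic mice were Pkd1RC/F without Cre (called Pkd1RC/+), with Pkd2 +/+ (mice 19 to 21) or with the homozygous deletion Pkd2 Δ17/Δ17 (mice 22 to 24). Cystic mice were KspCre; Pkd1RC/F (called Pkd1RC/-), with Pkd2 +/+ (mice 25 to 27) or Pkd2 Δ17/Δ17 (mice 28 to 30). Every mouse thus carried the hypomorphic RC allele and a floxed allele of Pkd1, and Δ17 removes the motif for the microRNA miR-17 from the 3′-UTR of Pkd2. KspCre acts in tubule epithelium and not in macrophages, whereas the Δ17 deletion is in the germline and so was present in macrophages too. The study had derived the Δ17 line by CRISPR editing of the KspCre; Pkd1RC/RC strain. The comparisons ask how the macrophage transcripts stood in cystic kidneys, and whether they stood differently when Pkd2 had lost the motif.

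Total counts were 18800307 to 24453033 per mouse, and replicate mice of 1 group differed by more than sampling noise. Kidney epithelium markers summed to 10074 to 12245 CPM (the usual depth-scaled count, here also adjusted for library composition) in noncystic Pkd2 +/+ kidneys, 11337 to 12591 CPM in noncystic Δ17/Δ17 kidneys, 5788 to 7798 CPM in cystic Pkd2 +/+ kidneys and 7655 to 9270 CPM in cystic Δ17/Δ17 kidneys. The 38 macrophage genes summed to 369 to 386 CPM in noncystic Pkd2 +/+ kidneys, 339 to 397 CPM in noncystic Pkd2 Δ17/Δ17 kidneys, 854 to 1096 CPM in cystic Pkd2 +/+ kidneys and 564 to 752 CPM in cystic Pkd2 Δ17/Δ17 kidneys. The cystic groups did not overlap each other or the noncystic groups in this sum. In bulk tissue, a change in the number of macrophages and a change in RNA per macrophage cannot be told apart. The p-values set a difference between groups against the spread between mice.

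PU.1, the protein of Spi1, is the transcription factor that defines the macrophage lineage and binds purine-rich sites around GGAA. The letters GAGGAAGT, a site of this type, were searched on both strands of the window from 250 bases before to 50 bases after the RefSeq start site (GRCm38.p6). They were found for 4 of the 28 macrophage genes that had a window (14.3%), which were Ctss, C1qc, Pf4 and Retnla, and for 3.69% of all 27025 genes with a window. A match is a description of the letters and not a measured binding site. The 3 matches that lie wholly before the start site are shown. In the counts below, C1qc and Pf4 were high in all cystic Pkd2 +/+ mice and Retnla was high in 1 of them. A link between these levels and the letters was not tested. The strand of the gene is printed 5′ to 3′, and the capitals mark the match, which is on the opposite strand in each.
C1qc (chr4:136893091-136893120, minus strand, 188 bases before the start): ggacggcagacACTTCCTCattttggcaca
Pf4 (chr5:90772414-90772434, plus strand, 3 bases before the start): ttctgcagagcACTTCCTCat
Retnla (chr16:48842400-48842429, plus strand, 191 bases before the start): gaagtgggtttACTTCCTCaagtctcttga
The TATA box letters TATAAA were found for 4 of the 28 macrophage genes (14.3%) and for 15.7% of all genes, so their share was near the background.

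In cystic compared with noncystic Pkd2 +/+ kidneys, 31 of the 38 macrophage genes rose and 0 fell (edgeR quasi-likelihood test, Benjamini-Hochberg adjusted p under 0.05). Among all genes tested, 16.9% rose and 14.2% fell. The median log2 fold change of the 38 genes was 1.54, against 0.02 over all genes. For 30 of the 38, all 3 cystic mice were above all 3 noncystic mice, which held for 22% of all genes. The 7 genes that did not pass were Fcgr2b, Folr2, Cd5l, Marco, Retnla, Chil3 and Gpnmb. With library totals in place of composition scaling, the median over all genes was 0.18 and that of the macrophage genes 1.70, and the share of calls that were higher went from 54.4 to 71.7%.

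**Figure D1:**
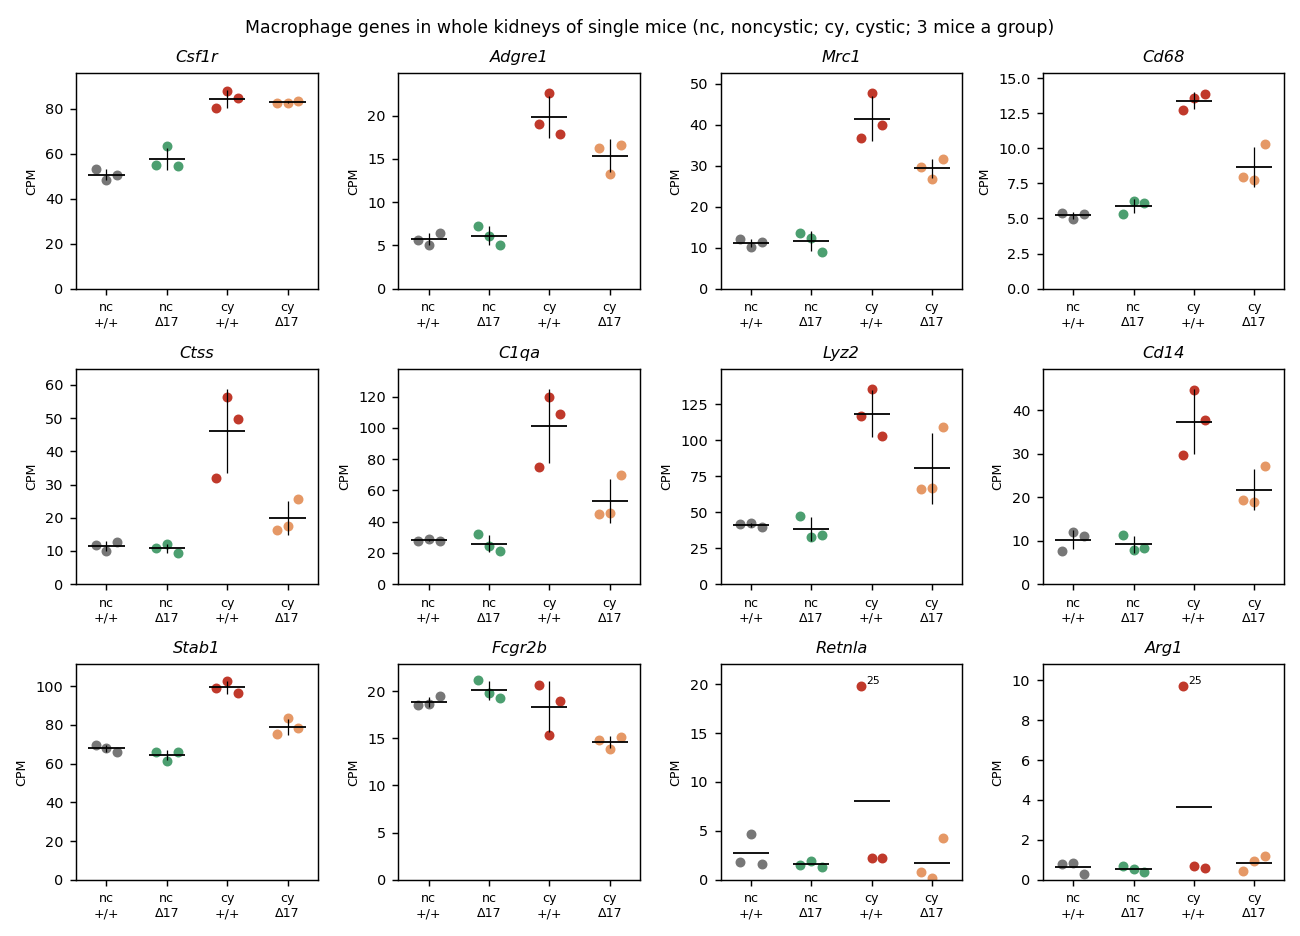
CPM (vertical axes, linear and starting at 0) of 12 macrophage genes in each of 12 mice, with 3 mice in each of the 4 groups on the horizontal axis (nc, noncystic; cy, cystic; +/+ and Δ17 are the Pkd2 genotypes). Long bars are group means and vertical lines 1 SD (not drawn for Retnla and Arg1, whose cystic Pkd2 +/+ mean rests on mouse 25, labelled): Ctss lies at 32.1 to 56.5 in cystic Pkd2 +/+ and at 16.4 to 25.8 in cystic Pkd2 Δ17/Δ17 mice, while Csf1r is near 83 in both.

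All 9 genes of lineage and lysosome rose. Csf1r was at 53.0, 48.3 and 50.5 CPM in the noncystic and at 80.1, 88.0 and 84.8 CPM in the cystic Pkd2 +/+ mice. The groups did not overlap, and the log2 fold change of 0.74 (SE 0.08, adjusted p = 1.54e-06) was the smallest of the 9. The gene for the F4/80 antigen, Adgre1, the usual surface marker of mouse macrophages, had 5.66, 5.07 and 6.46 CPM against 19, 22.6 and 17.9 CPM. It was 3.45-fold higher in cystic kidneys (log2 fold change 1.79, SE 0.16), beside 1.67-fold for Csf1r. Spi1, whose factor PU.1 controls many of the other genes, rose by 1.55 on the log2 scale (SE 0.24), with 10.7 CPM in mouse 25 and 20.2 and 21.7 CPM in mice 26 and 27.

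Ctss, the gene of the lysosomal protease cathepsin S, had 11.8, 9.98 and 12.7 CPM in the noncystic and 32.1, 56.5 and 49.8 CPM in the cystic mice. Mouse 25 was the lowest of its group, yet it was above every noncystic mouse. The log2 fold change of Ctss was 2.0 (SE 0.20, adjusted p = 1.23e-06). Aif1, which encodes the actin-binding protein IBA1, had the steepest rise of the 9 (2.28, SE 0.27), from 2.60, 2.28 and 2.09 CPM to 6.97, 15.4 and 11.5 CPM. The lysosomal glycoprotein gene Cd68 was 2.56-fold, the pore-forming Mpeg1 2.43-fold, the lysosomal membrane gene Laptm5 2.73-fold and the lysozyme gene Lyz2 2.88-fold higher. Per kilobase of exon, Lyz2 was the highest of these 9 genes in both groups, at 31.3 and 90.2 CPM per kilobase (group means).

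The 3 chains of C1q, the recognition molecule of the classical complement pathway, are encoded side by side on chromosome 4 and are made chiefly by macrophages. They rose by nearly the same amount, with log2 fold changes of 1.84 for C1qa, 1.87 for C1qb and 1.80 for C1qc (SE 0.19 each). C1qa was at 27.7, 29.1 and 27.7 CPM in noncystic and at 74.8, 120 and 109 CPM in cystic Pkd2 +/+ kidneys. C1qb and C1qc had the same order of the cystic mice, lowest in mouse 25 and highest in mouse 26. Per kilobase of exon, C1qa was the highest of all 38 genes in cystic Pkd2 +/+ kidneys, at 97.3 CPM per kilobase.

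Of the 6 Fc receptor and adaptor genes, 5 rose and Fcgr2b did not. The activating Fc receptors for IgG behaved alike, Fcgr1 at a log2 fold change of 2.03 (SE 0.32) and Fcgr3 at 1.59 (SE 0.17). The signalling adaptor genes Fcer1g and Tyrobp rose by 1.48 and 1.52 on the log2 scale, and Trem2, a lipid receptor that signals through the TYROBP adaptor, by 1.83. Fcgr2b, the inhibitory IgG receptor, was at 18.5, 18.6 and 19.5 CPM in noncystic and 20.7, 15.4 and 19 CPM in cystic mice. The groups overlapped, with a log2 fold change of -0.04 (SE 0.11, adjusted p = 0.841), and with library totals it was 0.12. Fcgr2b is also expressed by endothelium and B cells, and a gene model on the other strand overlaps it in the annotation.

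All 6 genes for integrins, Cd14, Cd86 and Ms4a proteins rose. Cd14, the co-receptor for lipopolysaccharide, went from 7.68, 11.9 and 11 CPM to 29.6, 44.6 and 37.8 CPM (log2 fold change 1.87, SE 0.20). Itgax, the gene for the integrin CD11c of dendritic cells and some macrophages, went from 1.77, 0.855 and 1.07 CPM to 5.03, 5.87 and 5.46 CPM (2.14, SE 0.32). For both genes the cystic group lay wholly above the noncystic group. Itgam, which encodes CD11b, was weaker (1.22, SE 0.37, adjusted p = 0.0185), and its adjusted p went up to 0.0997 when single mice were left out, being above 0.05 without mouse 19, 21 or 27. The T cell costimulator gene Cd86 rose 2.43-fold, Ms4a7 2.63-fold and Ms4a6c, which overlaps BE692007 on the other strand, 3.76-fold.

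Of the 9 genes for resident macrophage and scavenger proteins, 6 rose. Pf4, a chemokine gene of platelets that resident macrophages also express, had 3.27, 4.16 and 2.70 CPM against 10.3, 12.3 and 11.9 CPM (log2 fold change 1.77, SE 0.19). The scavenger receptor gene Msr1 rose 3.16-fold, and Cd163, the hemoglobin scavenger receptor, 2.04-fold. Stab1, a scavenger receptor gene shared with sinusoidal and lymphatic endothelium, was at 69.8, 68.2 and 66.0 CPM against 99.2, 103 and 96.4 CPM, a rise of only 0.55 on the log2 scale (SE 0.07) but with narrow groups. The hyaluronan receptor gene Lyve1, also a lymphatic marker, was at the edge of the threshold (0.99, SE 0.36, adjusted p = 0.0491) and was past it in no more than 8 of 15 alternatives. Timd4, the phosphatidylserine receptor of resident macrophages, had 5, 5 and 3 counts against 19, 27 and 15 counts (adjusted p = 0.0143) and did not pass without mouse 21 or mouse 26. Folr2 (8 to 22 counts in these 6 mice, adjusted p = 0.633), which overlaps Gm10602 and Gm45319 on the other strand, Cd5l (1 to 10 counts) and Marco (0 to 12 counts) did not pass, and their groups overlapped.

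Of the 5 genes for alternative activation and late phagocyte proteins, Mrc1 and Arg1 passed the threshold, and only Mrc1 was high in all 3 cystic mice. Mrc1, the mannose receptor CD206, had 12, 10.1 and 11.3 CPM in noncystic and 36.9, 47.7 and 40.0 CPM in cystic kidneys. Its log2 fold change of 1.89 (SE 0.14, adjusted p = 8.6e-08) had the smallest adjusted p of the 38 genes. Arg1, arginase 1, had 0.779, 0.855 and 0.305 CPM against 9.72, 0.685 and 0.565 CPM. The high value was that of mouse 25 alone, in which 251 reads were counted, and the log2 fold change of 2.52 (adjusted p = 0.0285) was -0.04 without this mouse. Retnla, which encodes the secreted protein RELMα, had the same shape, with 19.8 CPM in mouse 25 and 2.20 and 2.21 CPM in mice 26 and 27, against 1.82, 4.68 and 1.58 CPM in noncystic mice. Its log2 fold change of 1.61 (SE 0.81, adjusted p = 0.152) was -0.27 without mouse 25. Mouse 25 did not stand high in most other genes. Of the 31 genes whose average log2CPM was 0 or more, it was the lowest of its group in 20 and the highest in 4. These 4 were Retnla, Fcgr2b, Cd163 and Lyve1, and the low-count Cd5l and Marco were also highest in mouse 25. Chil3 (3 to 6 counts in these 6 mice) and Gpnmb (8 to 15 counts) stayed low in every mouse.

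**Figure D2:**
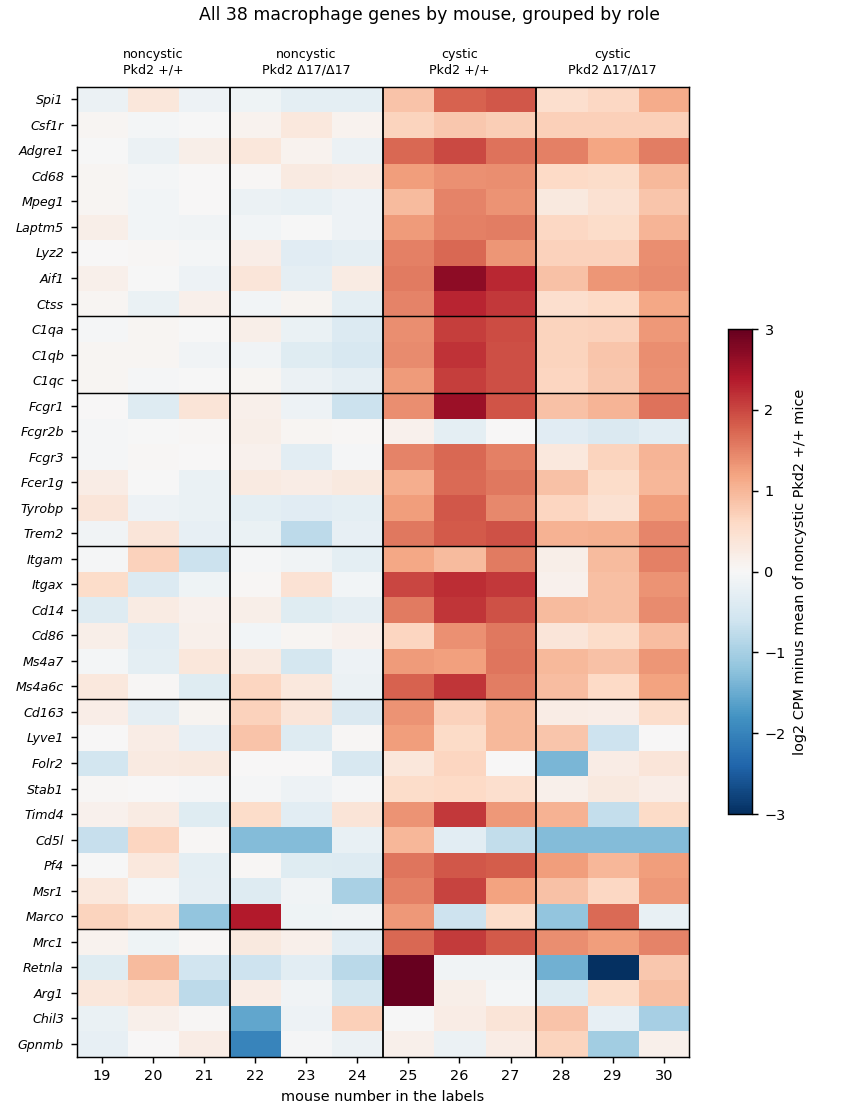
Difference of log2CPM (prior count 2) from the mean of the noncystic Pkd2 +/+ mice (colour, red higher and blue lower, saturating at 3 in either direction) for each of the 38 macrophage genes (rows, separated by role) in each of the 12 mice (columns, by mouse number). Mice 25 to 27 are red in nearly all rows, mice 28 to 30 are paler with mouse 30 the deepest of them, and Retnla and Arg1 are deep red in mouse 25 only.

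In Pkd2 Δ17/Δ17 mice, cystic kidneys had higher levels of 24 and a lower level of 1 of the 38 genes than noncystic kidneys, where 12.8% of all genes rose and 10.2% fell. The median log2 fold change of the 38 genes was 0.77, against 0.00 over all genes, and 25 genes were higher without overlap, which held for 20.2% of all genes. With library totals the median over all genes was 0.15, and the share of calls that were higher went from 55.7 to 76.3%. This comparison uses other mice than that between the Pkd2 +/+ groups. All 9 lineage and lysosome genes, all 3 C1q genes and 5 of 6 Fc receptor and adaptor genes rose here, as did 3 of 6 genes of the integrin, Cd14 and Ms4a group, 3 of 9 resident macrophage and scavenger genes (median 0.07, against 0.99 in Pkd2 +/+ mice) and 1 of 5 genes of alternative activation.

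Csf1r stood at 54.7, 63.2 and 54.6 CPM in noncystic and at 82.6, 82.4 and 83.4 CPM in cystic Pkd2 Δ17/Δ17 kidneys (log2 fold change 0.53, SE 0.08). Adgre1 had 7.19, 6.11 and 5.01 CPM against 16.3, 13.2 and 16.6 CPM (1.33, SE 0.16), and Mrc1 had 13.7, 12.3 and 8.91 CPM against 29.6, 26.9 and 31.6 CPM (1.33, SE 0.14). All 3 of these macrophage receptors were without overlap between the groups. Trem2 rose by 1.67 (SE 0.25) and Msr1 by 1.48 (SE 0.31), where they had risen by 1.83 and 1.66 in Pkd2 +/+ mice. Ctss rose by 0.88 (SE 0.20) and Cd68 by 0.55 (SE 0.15), where they had risen by 2.0 and 1.36 in Pkd2 +/+ mice. Cd68 did not pass without mouse 22 or mouse 30, and Fcer1g (0.57, SE 0.18) and Itgam (1.18, SE 0.38) lost their calls in 5 and 6 of 15 alternatives.

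The macrophage gene that fell was Fcgr2b, with 21.2, 19.8 and 19.3 CPM in noncystic and 14.8, 13.9 and 15.1 CPM in cystic Pkd2 Δ17/Δ17 kidneys. The groups did not overlap, and the log2 fold change was -0.46 (SE 0.11, adjusted p = 0.00699). With library totals its adjusted p was up to 0.0623, so this call rested on the scaling. Of the 31 genes that rose in Pkd2 +/+ mice, 7 did not pass here, which were Itgax, Cd86, Ms4a6c, Cd163, Lyve1, Timd4 and Arg1. Cd163 was at 6.92, 5.45 and 3.14 CPM in noncystic and 4.95, 4.89 and 6.11 CPM in cystic Pkd2 Δ17/Δ17 mice (0.04, SE 0.25), and Lyve1 was at 3.60, 1.47 and 1.98 CPM against 3.51, 1.22 and 1.97 CPM (-0.07, SE 0.37). For both of these genes of resident macrophages the groups overlapped.

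Between the cystic groups, 12 of the 38 macrophage genes were lower in Pkd2 Δ17/Δ17 than in Pkd2 +/+ kidneys and 0 were higher, where 1.04% of all genes tested were lower and 1.19% higher. They were Cd68, Mpeg1, Laptm5, Aif1, Ctss, C1qa, C1qb, C1qc, Fcgr3, Itgax, Cd14 and Stab1, that is 5 lineage and lysosome genes, all 3 C1q genes, 1 Fc receptor gene, 2 of the integrin and Cd14 group and 1 scavenger receptor gene. The log2 fold change was negative for 37 of the 38, and its median was -0.71, against 0.00 over all genes. At an unadjusted p under 0.05, 31 were lower, as were 7.17% of all genes, and for 22 the groups did not overlap, which held for 10.2% of all genes. The cystic Pkd2 +/+ mice are shared with the comparison of cystic and noncystic kidneys, so a gene that happens to be high in these 3 mice is high in both. Leaving out single mice moved the count of 12 to 5 without mouse 26, 2 without mouse 27, 1 without mouse 28, 2 without mouse 29, and 17 without mouse 25 or without mouse 30. It was 19 with DESeq2 and 2 in a fit on the compared groups only. The median stayed between -0.85 and -0.59 over these and the other alternatives.

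**Figure D3:**
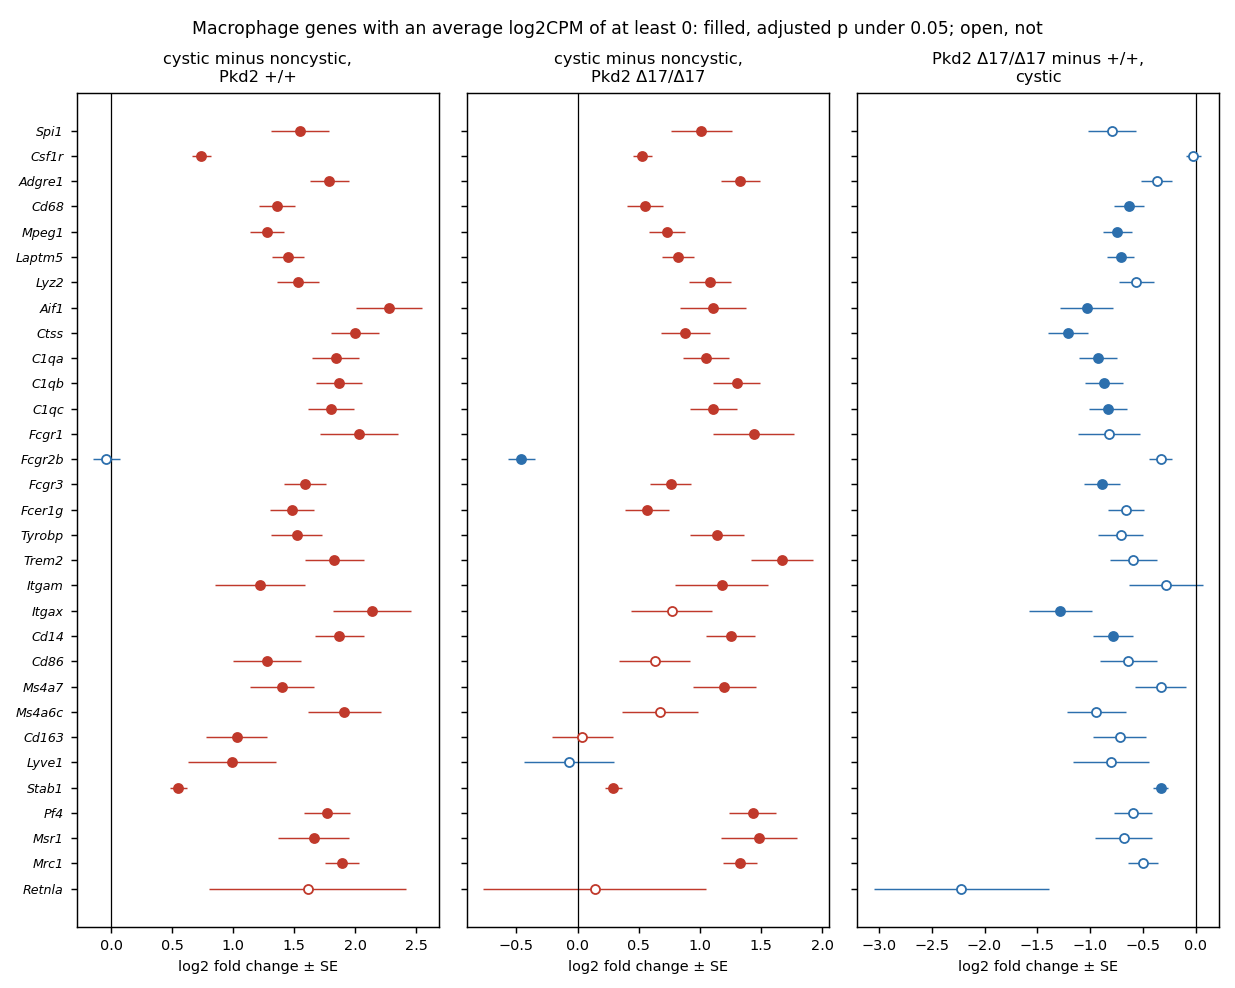
Log2 fold change (horizontal axes) with its standard error (bars) of the 31 macrophage genes whose average log2CPM was 0 or more, in cystic minus noncystic Pkd2 +/+, cystic minus noncystic Pkd2 Δ17/Δ17, and Pkd2 Δ17/Δ17 minus +/+ in cystic kidneys; the left and right panels share the cystic Pkd2 +/+ mice. Filled points passed an adjusted p of 0.05, red points are above and blue points below 0: 29 pass as higher on the left, and 12 pass as lower on the right, where every point is below 0 and Csf1r is at -0.02.

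Ctss had 32.1, 56.5 and 49.8 CPM in cystic Pkd2 +/+ and 16.4, 17.5 and 25.8 CPM in cystic Pkd2 Δ17/Δ17 kidneys. The groups did not overlap, and the log2 fold change of -1.21 (SE 0.19, adjusted p = 0.00428) stayed past the threshold in all 15 alternatives run for it, where the adjusted p was at most 0.039. It was the smallest adjusted p of the 38 genes in this comparison. Itgax fell the furthest among the genes called, from 5.03, 5.87 and 5.46 CPM to 1.30, 2.30 and 3.13 CPM (-1.28, SE 0.30, adjusted p = 0.0336), a 2.43-fold difference without overlap. Aif1 was 2.04-fold lower, with 4.33, 5.97 and 6.30 CPM in the Δ17/Δ17 mice.

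The C1q genes again kept together, with log2 fold changes of -0.92, -0.87 and -0.83 for C1qa, C1qb and C1qc (SE 0.18 each). C1qa was at 45.1, 45.5 and 69.8 CPM in cystic Pkd2 Δ17/Δ17 kidneys, and its highest mouse, 30, came close to the lowest Pkd2 +/+ mouse, 25, at 74.8 CPM. For C1qc these 2 mice overlapped, at 58.0 and 54.7 CPM. Cd68 went from 12.7, 13.6 and 13.9 CPM to 7.93, 7.73 and 10.3 CPM (-0.63, SE 0.14), and Laptm5 from 34.3, 40.1 and 40.7 CPM to 21.5, 20.5 and 28.3 CPM (-0.71, SE 0.13). Both lysosomal genes were without overlap. Fcgr3 was 1.85-fold, Mpeg1 1.67-fold and Cd14 1.72-fold lower. Stab1 had the smallest difference of the 12 (-0.33, SE 0.07), at 75.2, 83.5 and 78.3 CPM in the Δ17/Δ17 mice, all below the Pkd2 +/+ mice and all above the noncystic mice, and the annotation has Nt5dc2 overlapping it on the other strand. Of the 12 genes, 11 were still higher in cystic than in noncystic Pkd2 Δ17/Δ17 kidneys, the exception being Itgax.

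The remaining 19 of the 31 genes that rose in cystic Pkd2 +/+ kidneys were not called between the cystic groups. Csf1r differed least, at a log2 fold change of -0.02 (SE 0.07, adjusted p = 0.927), with 80.1, 88.0 and 84.8 CPM against 82.6, 82.4 and 83.4 CPM. In the annotation Csf1r overlaps Hmgxb3 on the other strand, and the strand setting of the counting is not given in the sources used here. Adgre1 was at -0.37 (SE 0.15, adjusted p = 0.267) and Mrc1 at -0.50 (SE 0.14, adjusted p = 0.0682), and for both the 3 Δ17/Δ17 mice were all below the 3 Pkd2 +/+ mice. Mrc1 passed in 3 of 15 alternatives, and Adgre1 in none of them. Lyz2 overlapped between the groups, since mouse 30 had 109 CPM, where mice 28 and 29 had 66.0 and 66.9 CPM (-0.56, SE 0.17, adjusted p = 0.104). Spi1 was at -0.79 (SE 0.23, adjusted p = 0.0945), with 8.36, 9.05 and 12.8 CPM against 10.7, 20.2 and 21.7 CPM. Arg1 had 0.433, 0.929 and 1.20 CPM in the cystic Δ17/Δ17 mice, and its log2 fold change of -2.11 was 0.45 without mouse 25. Retnla, at 0.817, 0.196 and 4.23 CPM, ranged by more within this group than between most groups. Cd5l had 10, 2 and 1 counts in the cystic Pkd2 +/+ mice and 0 in each of the cystic Δ17/Δ17 mice, and did not pass (adjusted p = 0.158).

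In noncystic kidneys, 0 of the 38 genes differed between Pkd2 Δ17/Δ17 and Pkd2 +/+ (edgeR quasi-likelihood test), and 1 had an unadjusted p under 0.05. That gene was Csf1r, which was higher with Δ17/Δ17 without overlap (log2 fold change 0.18, SE 0.08, adjusted p = 0.771). Over all genes, 0.00406% passed and 6.31% had an unadjusted p under 0.05. The median log2 fold change of the 38 macrophage genes was -0.10, against 0.01 over all genes, with 14 positive and 24 negative values. Their summed levels overlapped, as given above. DESeq2, limma-trend and every other alternative run also called 0 of them.

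The interaction asks whether the difference between cystic and noncystic kidneys was itself smaller with Pkd2 Δ17/Δ17. Its log2 value was negative for 37 of the 38 genes, with a median of -0.60 against -0.01 over all genes, and 17 genes had a negative value at an unadjusted p under 0.05. After adjustment 0 genes passed, with a smallest adjusted p of 0.24, where 0.0122% of all genes passed and 4.05% had a negative value at an unadjusted p under 0.05. DESeq2 called 1 of the 38 genes and the edgeR fit without a cutoff on low counts called 11. Without mouse 25 the main test called 1, and without mouse 30 the median was -0.82. So a smaller difference in Pkd2 Δ17/Δ17 mice was not shown for any macrophage gene by the main test.

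The macrophage genes varied together most clearly among the cystic Pkd2 Δ17/Δ17 mice and least among the noncystic Pkd2 +/+ mice. Over the 31 genes whose average log2CPM was 0 or more, the median log2 difference from the noncystic Pkd2 +/+ mean was 1.40, 1.76 and 1.58 in mice 25, 26 and 27 and 0.66, 0.66 and 1.24 in mice 28, 29 and 30. It was between -0.24 and 0.05 in the 6 noncystic mice. Mouse 30 was the highest of its group in 29 of the 31 genes, and mouse 26 in 20 of the 31. Among the noncystic Pkd2 +/+ mice, 19, 20 and 21 were highest in 16, 10 and 5 of the 31. The distance of mouse 30 from its 2 group mates was thus larger than that from mouse 25 of the other genotype.

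Levels relative to Csf1r within each mouse, a measure added after the data were seen, do not depend on library scaling. The ratio of Ctss to Csf1r, in CPM, was 0.207 to 0.252 in noncystic and 0.400 to 0.642 in cystic Pkd2 +/+ mice, and 0.198 to 0.309 in cystic Pkd2 Δ17/Δ17 mice. For Cd68 the 3 ranges were 0.102 to 0.105, 0.155 to 0.164 and 0.0937 to 0.124, and for Mrc1 they were 0.210 to 0.227, 0.461 to 0.542 and 0.326 to 0.379. In noncystic Δ17/Δ17 mice the Ctss ratio was 0.171 to 0.199, wholly below the noncystic Pkd2 +/+ range. The log2 difference was -0.28 there, against -1.18 between the cystic groups. A lower Ctss ratio with Δ17/Δ17 was thus not limited to cystic kidneys. In noncystic kidneys the log2 fold change with Δ17/Δ17 was -0.10 (SE 0.21) for Ctss, whose groups overlapped. It was 0.18 (SE 0.08) for Csf1r, the denominator, and neither gene was called. Between the cystic groups it was -1.21 for Ctss and -0.02 for Csf1r, so the ratio differences were not made up alike. For Cd68 (0.0977 to 0.112) and Mrc1 (0.163 to 0.25) the noncystic ranges overlapped. None of the cystic Δ17/Δ17 ranges overlapped the cystic Pkd2 +/+ range. An exact 2-sided permutation test gave p = 0.1 for each, the smallest that 3 against 3 mice allow, so this design cannot reach 0.05 for a single ratio. Csf1r was taken as the denominator after it was seen to differ least between the cystic groups, so the ratios describe that observation on another scale and add no independent evidence.

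Genes that attract or sustain macrophages were taken as a list of 13, of which 12 were tested. In cystic against noncystic Pkd2 +/+ kidneys 11 rose and 1, Mif, fell, where 16.9% of all genes rose and 14.2% fell. Csf1, the main growth factor of macrophages, had 18.6, 14.3 and 15.4 CPM against 70.3, 80.8 and 78.9 CPM (log2 fold change 2.25, SE 0.16), and Il34, the second ligand of the same receptor, rose by 1.89 (SE 0.16). Cx3cr1, the fractalkine receptor of monocytes and macrophages, rose by 1.95 (SE 0.23). In cystic Pkd2 Δ17/Δ17 compared with cystic Pkd2 +/+ kidneys, 6 of the 12 fell and 0 rose, where 1.04% of all genes fell and 1.19% rose. The 3 with the smallest adjusted p were Ccr2, Ccl2 and Csf1. Ccr2, the receptor of the monocyte attractant encoded by Ccl2, had 14.7, 9.01 and 6.64 CPM against 2.5, 2.35 and 3.94 CPM (-1.79, SE 0.28, adjusted p = 0.00415). Ccl2 had 2.79, 6.12 and 2.68 CPM against 1.01, 1.17 and 1.59 CPM (-1.61, SE 0.34), and Csf1 was at 36.6, 44.4 and 63.0 CPM in the Δ17/Δ17 mice (-0.68, SE 0.15). For each of these ligand and receptor genes the cystic groups did not overlap.

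Of 10 further transcription factors of macrophages, a list that leaves out Spi1, 1 rose (Runx1, 2.11, SE 0.27) and 5 fell in cystic Pkd2 +/+ kidneys, with the smallest adjusted p for Maf (-1.09, SE 0.13) and Nr1h3 (-0.93, SE 0.11). Maf is also expressed by proximal tubule. Of 10 genes of inflammatory activation, Cxcl10 (1.96, SE 0.38) and Tnf (2.04, SE 0.53) rose and 0 fell in that comparison. Among all genes 16.9% rose and 14.2% fell there, so the 2 inflammatory genes and the 1 rising transcription factor were near the background share. Of the 10 inflammatory genes, 0 differed between the cystic groups, where 1.04% of all genes were lower and 1.19% higher. Between the cystic groups 1 of the 10 transcription factors passed, Nr4a1, which was higher with Δ17/Δ17 (1.57, SE 0.38, adjusted p = 0.0411).

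Markers of other cells moved beside the macrophage genes, and their part in the results was not tested. Of 10 pan-leukocyte genes, which macrophages share, 9 rose in cystic Pkd2 +/+ kidneys and 4 were lower in cystic Δ17/Δ17 than in cystic Pkd2 +/+ kidneys (Coro1a, Cd52, Dock2 and Rac2). Their sum was 66.6 to 71.3, 64.8 to 78.5, 124 to 146 and 75.5 to 104 CPM in noncystic Pkd2 +/+, noncystic Δ17/Δ17, cystic Pkd2 +/+ and cystic Δ17/Δ17 kidneys. Of 7 monocyte genes, 3 rose (F13a1, Fn1 and Plac8), and F13a1 was lower with Δ17/Δ17 in cystic kidneys (-0.88, SE 0.16). Fn1 is also made by stromal cells. Among all genes 16.9% rose in cystic Pkd2 +/+ kidneys, and 1.04% were lower with Δ17/Δ17 in cystic kidneys.

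Neutrophil genes summed to 4.05 to 6.28 CPM in the noncystic and 4.31 to 5.79 CPM in the cystic Pkd2 +/+ mice, and 0 of 9 tested were called there. T and NK cell genes summed to 9.01 to 12.3 and 9.72 to 12.9 CPM, with 4 of 10 higher and 1, Cd8a, lower. Dendritic cell genes summed to 26.5 to 30.4 and 21.6 to 22.1 CPM, with 0 of 8 higher and 1 lower. Most of both sums was the single gene Zbtb46, at 19.3 to 23.4 and 14.4 to 15 CPM, so they say little about the other genes of this list. Cd209a was lower with Δ17/Δ17 in cystic kidneys (-1.97, SE 0.44). Of the B cell genes 1 of 7 rose, Ighm, and of the mast cell genes 0 of 5 were called. Among all genes 16.9% rose and 14.2% fell in this comparison. A list of so few genes with 0 or 1 called cannot be told apart from these shares. Endothelial genes went the other way, with 6 of 10 lower in cystic Pkd2 +/+ kidneys and sums of 1461 to 1631 against 959 to 1175 CPM. Between the cystic groups, Δ17/Δ17 kidneys had 1132 to 1349 CPM of endothelial genes, with 1 of 10 higher (Tek, 0.50, SE 0.11), and 2 of 10 kidney epithelium genes were higher (Slc12a1, 0.93, SE 0.10, and Lrp2, 0.64, SE 0.14) beside the lower macrophage genes. Their part in the macrophage result was not tested. Among lymphatic genes Prox1 and Reln fell and Pdpn rose in cystic Pkd2 +/+ kidneys, and Ccl21a was at 0 counts in every mouse. In cystic Δ17/Δ17 against cystic Pkd2 +/+ kidneys, Prox1 and Reln were higher and Pdpn lower. The lymphatic genes Flt4 and Mmrn1 were not called in either comparison.

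**Figure D4:**
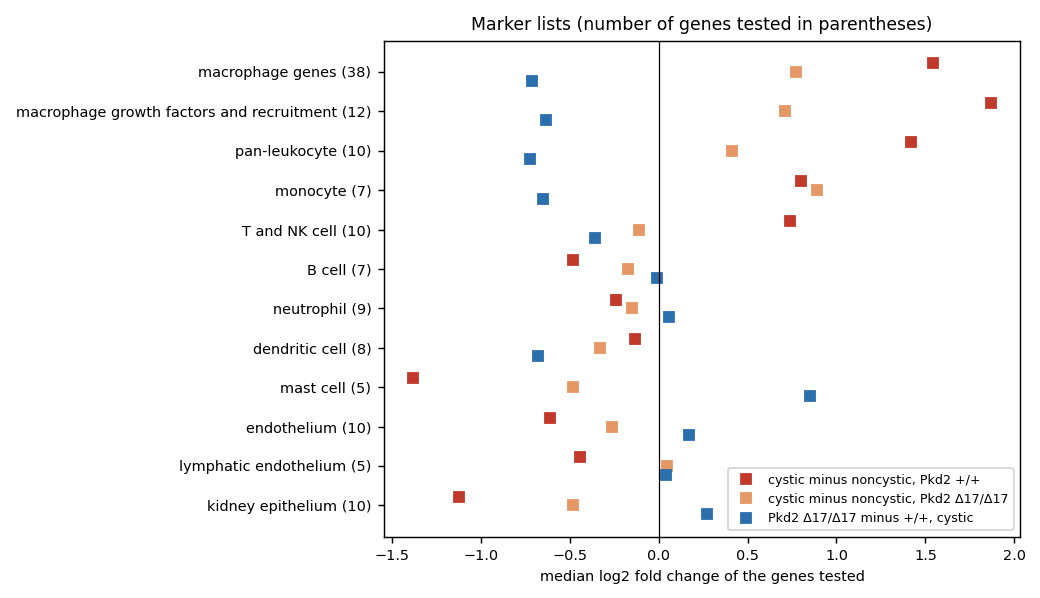
Median log2 fold change (horizontal axis) of the genes tested in each marker list (rows, number of genes in parentheses) in 3 comparisons (colours); a median has no error bar because the genes of a list are not replicates. The macrophage genes are at 1.54, 0.77 and -0.71, and the pan-leukocyte and growth factor lists lie in the same directions, whereas endothelium is at -0.61, -0.26 and 0.17.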

How the data were processed

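The authors trimmed paired reads with Trim Galore 0.6.3, aligned them to GRCm38 with STAR 2.5.3a and deposited, for each gene of Ensembl release 94, raw counts without normalization. The strand setting is not given in the sources used here, so overlapping genes are uncertain. Genes without a name (343) held 0.0225% of the counts. Replicate pairs differed beyond sampling noise (chi-square per degree of freedom 9.65 to 26.8).

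Counts were tested in R 4.3.3 with edgeR 4.0.16: a cutoff of -3 on the average log2CPM (24642 genes kept), TMM factors, 1 mean per group over 12 mice (8 residual degrees of freedom), the quasi-likelihood test, and Benjamini-Hochberg adjustment over all genes tested. The methods of the study use limma-trend, which was run with library totals as an alternative (limma 3.58.1), as was DESeq2 1.42.0. CPM used the TMM factors, and log2CPM a prior count of 2. The median SE of a log2 fold change was 0.11 where the average log2CPM was 1 or more. All 38 genes were named, grouped by role, and folds are given for the 31 whose average log2CPM was 0 or more and for Timd4 and Arg1. Of the 13 other lists, up to 3 called genes in each direction with the smallest adjusted p were to be named, and further names were chosen after their values were seen. The genes, lists and roles were chosen with earlier results of these data known. Exon lengths and overlaps come from GENCODE M21, which held 99.93% of the identifiers. Promoter windows come from RefSeq. The fits were tested on simulated data. The other series of the study were not analysed here.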

Additional observations from a re-analysis of the deposited data

How the results depend on the processing

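Directions and calls were recomputed under limma-trend with library totals (which changes test and scaling together), DESeq2, other scalings (library totals, DESeq2 size factors), other cutoffs on low counts, a fit on 2 groups, the Xist level as covariate, stricter thresholds, and without each mouse. No paired analysis was possible because each mouse carries its own number and no number is shared between groups. The cause of the changes below was not tested, also where fewer mice or fewer genes were in the fit. The count of 31 higher genes in cystic Pkd2 +/+ kidneys was 27 to 30 without single mice, and that of 24 in Pkd2 Δ17/Δ17 kidneys 21 to 24. The median of 1.54 was 1.70 with library totals. The 1 lower gene in cystic Pkd2 Δ17/Δ17 kidneys became 0 with library totals, both in limma-trend and in edgeR, and when at least 2-fold was asked. The 12 genes lower with Δ17/Δ17 in cystic kidneys became 19 with DESeq2, 22 without a cutoff, 2 in the fit on 2 groups, 2 at an adjusted p under 0.01, 3 when at least 2-fold was asked, and 1 to 17 without single mice. For the interaction, the count of 0 became 1 with DESeq2, 11 without a cutoff and 0 to 1 without single mice, and its median of -0.60 ran from -0.82 to -0.50.

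Signs changed for genes with small or unstable values. In cystic against noncystic Pkd2 +/+ kidneys, Fcgr2b was 0.11 and 0.12 with library totals in limma-trend and in edgeR. Without single mice it ran from -0.13 to 0.07, Retnla from -0.27 to 2.23 and Arg1 from -0.04 to 3.02. In Pkd2 Δ17/Δ17 mice, Lyve1 was 0.05 and 0.09 with library totals in limma-trend and in edgeR, and Retnla -0.47 in that limma-trend fit. Without single mice Cd163 ran from -0.22 to 0.30, Lyve1 from -0.55 to 0.36, Timd4 from -0.26 to 0.71 and Retnla from -1.63 to 0.67. Between the cystic groups Csf1r ran from -0.06 to 0.01, Itgam from -0.66 to 0.00 and Arg1 from -2.61 to 0.45.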
